A study of Homo sapiens with 2 samples.

Results

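The p53 feedback circuit was described here through 9 genes: MDM2, MDM4 and PPM1D, which restrain p53, the cyclin-dependent kinase inhibitors CDKN1A and CDKN1B, the stress genes GADD45A and GADD45B, and the sestrins SESN1 and SESN2. The genes were selected by name, with earlier results of these data known, and make up 9 of the 47352 gene names in the table. The data are 1 m6A immunoprecipitation (IP) library and 1 input library of GM12878, a human B-lymphoblastoid line made by transformation with Epstein-Barr virus. The cells grew in RPMI with serum and no other treatment is given, their TRIZOL-extracted total RNA was fragmented, and fragments bound by an antibody against N6-methyladenosine (m6A) formed the IP while unselected fragments formed the input. Both libraries came from this single line and were made strand-specific with dUTP. Each group held 1 library, so no difference below has a replicate check and no test was possible. Intervals of ratios and of input coverage are exact 95% intervals that cover counting error only. Those of scores are approximate, as explained below.

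p53 is a transcription factor that is held low in unstressed cells by MDM2, whose own gene it activates, which closes a negative feedback loop. Lymphoblastoid lines usually keep functional p53. m6A is a methyl mark placed on adenosines of messenger RNA, commonly in long exons and around the stop codon, and its readers influence the stability, splicing and translation of the transcript.

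The source label of both libraries reads mouse embryonic stem cells, whereas the organism, cell type and cell line fields name human GM12878. All 10 B cell markers examined were measured in the input, with a median coverage of 23.2 and CD74 highest at 775, and none of the 8 pluripotency markers was measured, the highest being SOX2 at 0.153. Of the markers of other cells, 2 of 6 T cell genes (TRAC at 26.4 the higher), 1 of 5 myeloid genes and 0 of 5 fibroblast genes were measured. Counted over 1 transcript listing per gene, the depth was about 58.5 M reads in the IP library and 51.7 M reads in the input library.

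The values are the authors' scaled read coverage in 100-nt windows that start every 50 nt within the exons of a transcript listing. A coverage of 1 equals 3.71 reads per base in the IP and 5.84 in the input, so an IP to input ratio is relative to these scales and not an absolute share of methylated molecules. A gene was called measured at a mean input coverage of at least 1, which 10756 genes reached. The authors' window score is the log2 of IP over input after each was divided by its median over the gene, with 1 added throughout, and it therefore shows where within a gene the IP is concentrated. Enriched windows are those with scores of at least 2, a 4-fold difference, and a run of at least 2 enriched windows was called a region. The gene-level score is the highest mean score of 2 consecutive windows. A longer listing offers more pairs to take it from, and the medians and percentiles of this score were not matched for length. The interval of the score carries over, in log2, the width of the exact interval of the highest pair's IP to input ratio, without the added 1. Leaving out the added 1 makes it too wide where coverage is low, most of all for SESN1. The interval also leaves out the counting error of the gene medians and the choice of the pair as the highest. Those 2 omissions make it too narrow.

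Of the 9 genes, 8 were measured, and 7 of these 8 held an enriched region: MDM2, MDM4, PPM1D, CDKN1B, GADD45A, GADD45B and SESN2. Among all measured genes 44.2% held a region, and among measured genes with the same range of window numbers, 30 to 207, the share was 53.6%. CDKN1A was measured and held no region, while SESN1 was below the input minimum. The median gene-level score was 3.19 in the 8 measured genes of the circuit and 1.81 in all 10756 measured genes, and the median ratio of mean IP to mean input coverage was 3.62 in the 8 genes and 1.36 in all measured genes. The median input coverage of the 8 genes was 4.18, close to 3.75 for all measured genes. Their median number of windows was 62, against 55 for all measured genes. Mean IP coverage was at least 4 times mean input coverage in 4 of 8, namely MDM2, PPM1D, GADD45A and GADD45B, and in 16.5% of all measured genes. The interval of GADD45A, 3.72 to 4.40, included 4.

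**Figure D1:**
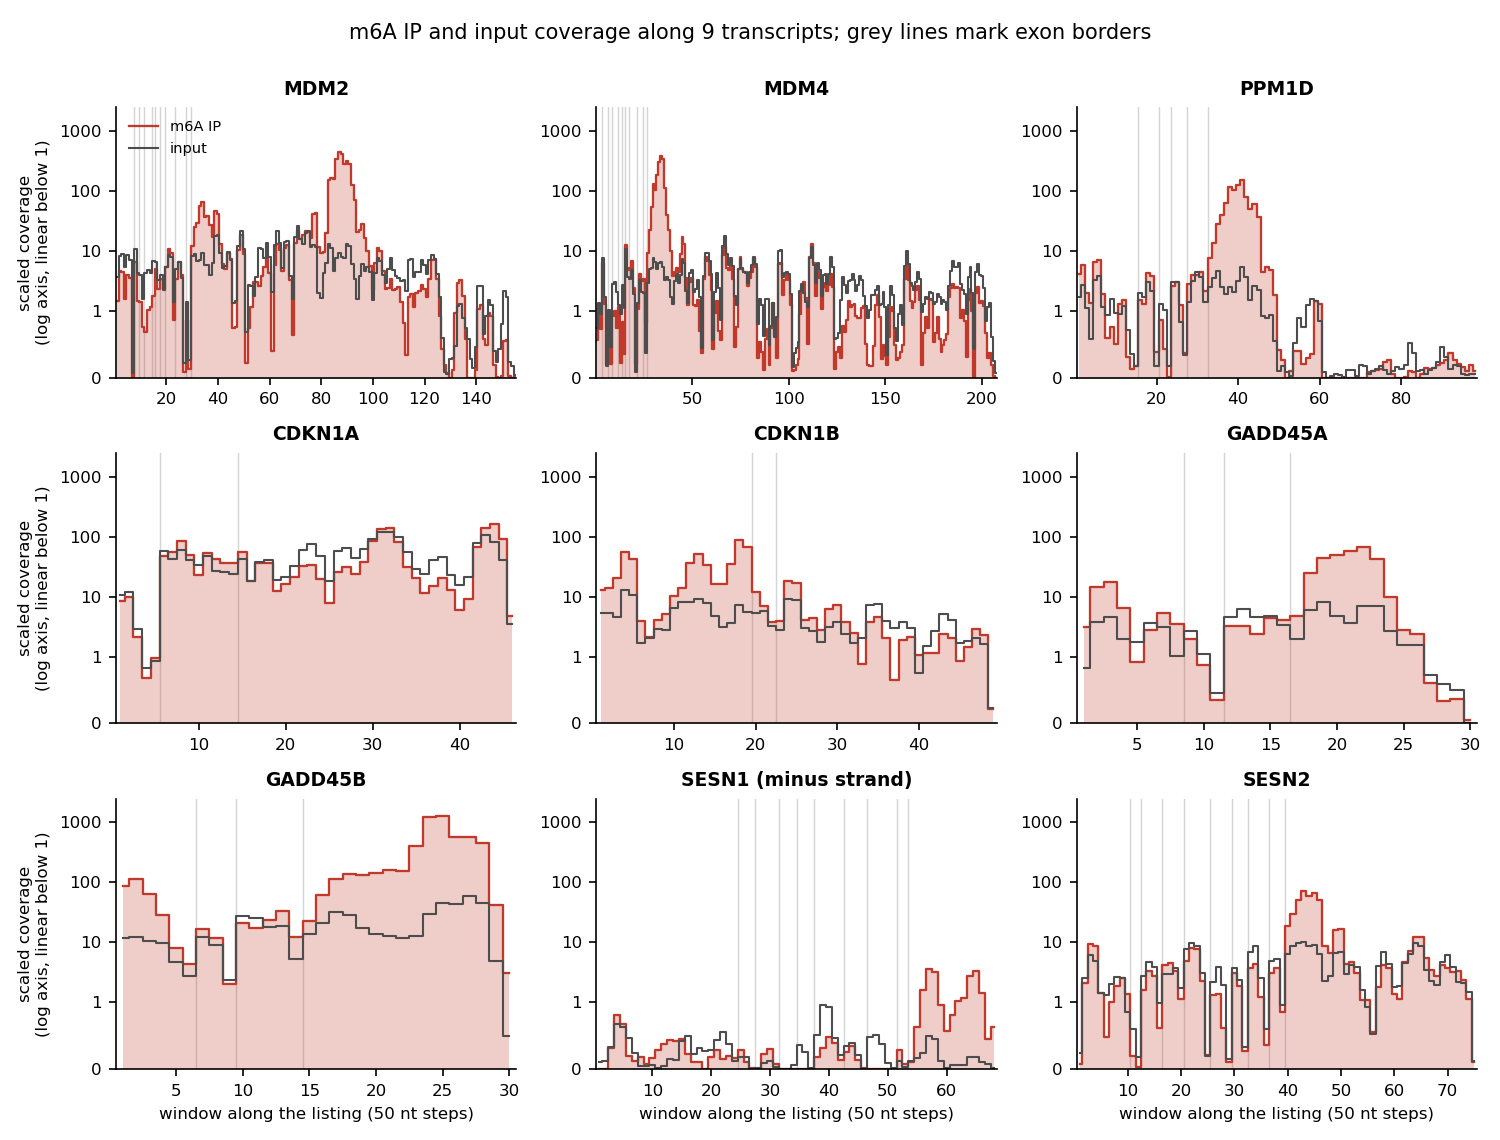
IP (red) and input (grey) coverage of the 9 genes on a log axis that is linear below 1, with windows along the longest listing on the horizontal axis and exon boundaries as vertical lines. IP stands far above input over a short stretch of the last listed exon in MDM2, MDM4 and PPM1D, over much of the last exon in GADD45B, and nowhere by 4-fold in CDKN1A.

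The 3 inhibitors of p53 had the highest gene-level scores of the circuit. They also had the most windows, 207 in MDM4, 155 in MDM2 and 98 in PPM1D, and whether length accounts for their scores was not tested. MDM2 encodes the E3 ubiquitin ligase that marks p53 for degradation. Over its 155 windows in 11 exons it had a mean coverage of 25.2 in the IP and 5.95 in the input, a ratio of 4.23 (4.12 to 4.35). Its highest pair of windows, in exon 11, had 457 and 409 in the IP, against 9.26 and 7.88 in the input, a 50.5-fold difference (42.7 to 60.2). The gene-level score of 5.84 stood at percentile 99.3 of measured genes.

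MDM2 was the single gene of the circuit with 3 or more regions, which 5.72% of measured genes had. That share is not matched for length, and MDM2 has 155 windows against a median of 55. Its last 2 regions are parted by 2 windows with scores of 1.33 and 1.87. All 3 regions lay in exon 11, which spans 126 windows. Counted from the inner edge of that exon, where it adjoins exon 10, the first began at 100 nt and had 42.5 in the IP against 6.52 in the input, 6.52-fold (5.77 to 7.40). The next began at 2400 nt, with 21.5 in the IP against 5.20 in the input, 4.14-fold (3.37 to 5.14). The main region began at 2650 nt and covered 15 windows, with 190 in the IP against 7.48 in the input, 25.4-fold (23.8 to 27.2). The stretch between the first 2 regions did not show this difference on average, at 11.3 in the IP and 10.5 in the input, a ratio of 1.08 (1.02 to 1.13). Its ends were higher, with scores of 1.65 and 1.68 in windows 9 and 10 of the exon and 1.97 in window 48. Beyond the main region the exon had 2.13 in the IP and 2.88 in the input, a ratio of 0.740. The 3 regions made up 15.5% of the windows of MDM2 and held 81.3% of its IP coverage and 18.1% of its input coverage. In exons 1 to 10 no window of MDM2 was enriched.

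MDM4 encodes a relative of MDM2 that binds p53 and blocks its activation domain. It averaged 10.5 in the IP and 3.27 in the input, a ratio of 3.20 (3.10 to 3.31), over 207 windows in 11 exons. The highest pair had 385 and 338 in the IP, against 6.59 and 5.54 in the input, which is 59.6-fold (49.0 to 74.0). The gene-level score of 6.28, at percentile 99.7, was the highest of the circuit. A single region of 12 windows began 50 nt into exon 11, with 143 in the IP against 5.01 in the input, 28.4-fold (25.9 to 31.2). These windows were 5.80% of the gene and held 79.0% of its IP coverage and 8.90% of its input coverage. The rest of this exon, 168 windows beyond the region, had 2.28 in the IP and 3.28 in the input, a ratio of 0.695. The table gives 4 transcript listings of MDM4, and each had 1 region and a gene-level score of 6.28.

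PPM1D encodes the phosphatase WIP1, a p53-induced enzyme that removes activating phosphates from p53 and its upstream kinases. Its input was the lowest of the 8 measured genes, at 1.12 (1.05 to 1.20), while its IP coverage was 10.04, a ratio of 8.97 (8.34 to 9.63) at percentile 97.0. The pair with the highest score, in exon 6, had 118 and 106 in the IP, against 2.56 and 2.12 in the input. The input of that pair rested on 38 reads, and its 47.9-fold difference had a wide interval, 34.6 to 67.9. The gene-level score was 5.27, at percentile 97.4. The region began 100 nt into exon 6 and covered 11 windows, with 78.6 in the IP against 2.96 in the input, 26.6-fold (23.5 to 30.2), and it held 87.9% of the IP coverage and 29.7% of the input coverage of PPM1D. In exons 1 to 5 the ratio lay between 0.517 and 1.62.

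The cyclin-dependent kinase inhibitors differed from each other. CDKN1A encodes p21, which arrests the cell cycle and is the classical transcriptional target of p53. It had the highest input of the circuit, at percentile 96.0 of measured genes, with 41.2 in the IP and 44.2 in the input, a ratio of 0.932 (0.909 to 0.956). Its gene-level score was 1.42 (1.30 to 1.54), at percentile 39.3. Even its best pair, in exon 3, reached 162 and 91.1 in the IP against 80.5 and 41.4 in the input, a 2.08-fold difference (1.91 to 2.26). Window scores of CDKN1A ran between -1.04 and 1.48, and its 3 exons had ratios of 0.791, 1.20 and 0.877. Its listing was covered by 9787 IP reads and 16501 input reads. Its 4 listings differ in their first exon and in the number of exons, 3 or 4, and all had no region and a gene-level score of 1.42.

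CDKN1B encodes p27, a relative of p21 that is controlled mainly through protein turnover and FOXO factors and is not a classical p53 target. It averaged 13.4 in the IP and 4.46 in the input, a ratio of 2.996 (2.83 to 3.17). The region covered the last 3 of the 19 windows of exon 1, with 63.3 in the IP against 5.45 in the input, 11.6-fold (9.65 to 14.0), and it held 29.0% of the IP coverage and 7.48% of the input coverage. Window 13 of that exon was enriched on its own, with 52.0 in the IP and 9.28 in the input. Exon 1 as a whole had 28.0 in the IP and 5.95 in the input, a ratio of 4.70 (4.36 to 5.07), whereas exon 3, the longest, had 3.76 in the IP and 3.38 in the input, a ratio of 1.11 (0.991 to 1.24). The gene-level score was 3.27, at percentile 76.8. The interval of the IP to input ratio of CDKN1B did not overlap that of CDKN1A.

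GADD45A and GADD45B encode small stress proteins that bind p21 and PCNA and activate the MTK1 kinase pathway. GADD45A is a p53 target, and GADD45B is known as a gene induced by NF-κB. GADD45A had 12.8 in the IP and 3.16 in the input, a ratio of 4.05, over 30 windows. Its region covered 5 windows starting 100 nt into exon 4, with 52.5 in the IP against 6.10 in the input, 8.61-fold (7.52 to 9.91). This region held 68.4% of the IP coverage and 32.2% of the input coverage of GADD45A, and the gene-level score was 3.12. Exon 1 had a ratio of 2.63, and exons 2 and 3 had ratios of 0.753 and 0.737. All 3 listings of GADD45A held 1 region and the same gene-level score.

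GADD45B had the highest IP coverage of the circuit, 197 against 18.8 in the input, and the highest ratio, 10.5 (10.2 to 10.8), at percentile 97.9. Its gene-level score was 2.94, at percentile 71.2. That score is centred on the gene medians, which for GADD45B were 62.5 in the IP and 13.3 in the input. Without centring, as the log2 of IP plus 1 over input plus 1, the highest pair of GADD45B had a value of 5.09, at percentile 94.7, and 15 of its 30 windows reached 2, with 12 of them in a row. With centring, 3 windows of exon 4 formed the region, starting at 400 nt, with 969 in the IP against 29.2 in the input, 33.2-fold (30.8 to 35.8). Outside that region the ratio was still 6.31. Exon 4 had 342 in the IP and 24.6 in the input, a ratio of 13.9 (13.4 to 14.4), exon 1 had a ratio of 5.96, and exons 2 and 3 had ratios of 1.28 and 1.13. The ratio of GADD45B was above that of GADD45A with no overlap of the intervals, while the centred gene-level scores, 2.94 (2.78 to 3.09) and 3.12 (2.75 to 3.50), overlapped.

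The sestrins are stress-induced inhibitors of mTORC1 signalling, and both SESN1 and SESN2 are p53 targets. SESN2 had 7.86 in the IP and 3.90 in the input, a ratio of 2.02 (1.91 to 2.13). Its region covered 5 windows starting 100 nt into exon 10, with 59.8 in the IP against 8.79 in the input, 6.81-fold (6.07 to 7.67). The region held 50.8% of the IP coverage and 15.0% of the input coverage. Beyond it the exon had 4.88 in the IP and 3.77 in the input, a ratio of 1.29, and the gene-level score was 2.74, at percentile 67.6.

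SESN1 was scarcely covered, with 0.469 in the IP and 0.235 in the input, or 165 IP reads and 130 input reads over 68 windows. No window reached a score of 2, and the gene-level score was 1.80. Its interval, 0.12 to 4.15, carries over that of the raw ratio of a pair with 32 IP reads and 3 input reads. With 1 added to such low coverage the score varies less, so this interval does not place the score against 2. Exon 10, which is at the 5′ end because SESN1 lies on the minus strand, had 115 of the IP reads and 19 of the input reads, 1.49 in the IP against 0.159 in the input, 9.37-fold (5.82 to 16.4). This exon is listed with 15 windows in the longest listing, while the other 2 listings end in different exons of 5 and 4 windows and had gene-level scores of 0.39. Exon 1, the longest, had 0.247 in the IP and 0.275 in the input.

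The position of the regions within the listings was set beside that in other genes. Exon numbers follow genome order: the longer terminal exon had the highest number in 91.2% of 6861 genes on the plus strand and in 9.01% of 6607 genes on the minus strand, with strands from RefSeq (GRCh38.p14). Of the 7 genes with a region, 6 had their highest pair in the longer of the first and last exons, with CDKN1B as the exception, beside 74.8% of 4607 measured genes with a region and more than 1 exon. The 6 of 7 is a share near that background. The highest pair began 150 nt into that exon in GADD45A, 250 nt in PPM1D and SESN2, 350 nt in MDM4, 400 nt in GADD45B and 2850 nt in MDM2. In the 3448 genes of the background the median was 350 nt and the 90th percentile 1350 nt. MDM2 lay beyond that percentile and the other 5 lay within the 10th to 90th. Exon length limits this distance, and the background was not matched to the 126 windows of exon 11 of MDM2. MDM2 also had an enriched region near the inner edge, with the lower fold given above. Stop codons and untranslated regions are not marked in the table, and the windows were not placed against them here.

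**Figure D2:**
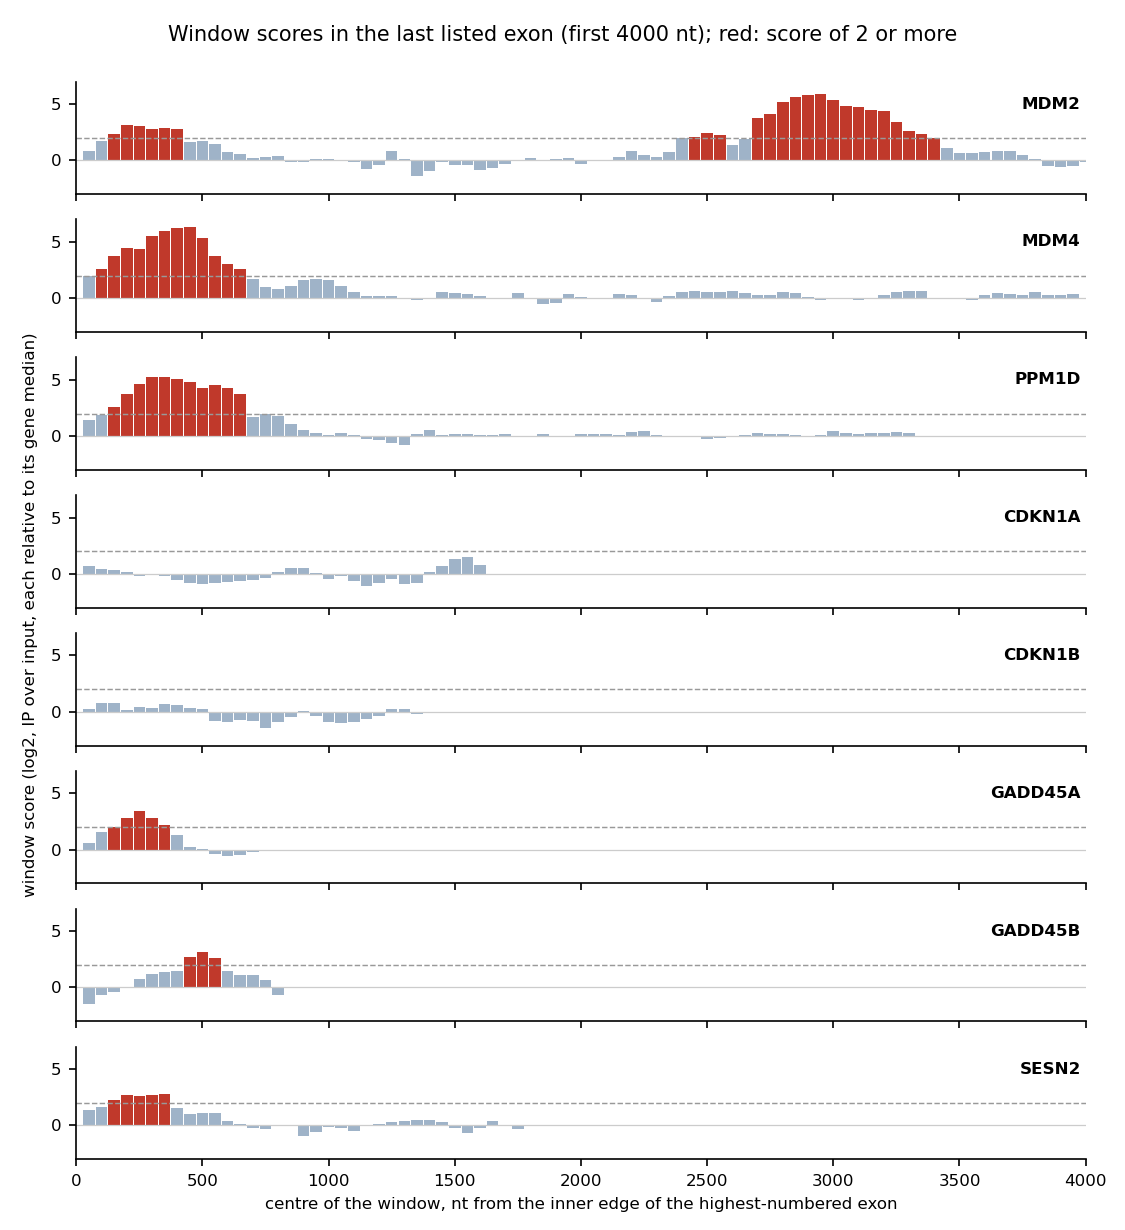
Window scores (log2, IP over input relative to the gene medians) of the 8 measured genes against the distance in nt from the inner edge of the highest-numbered exon, drawn up to 4000 nt, with windows at a score of 2 or more in red and a dashed line at 2. The main peak of MDM2 lies near 2900 nt, whereas those of MDM4, PPM1D, GADD45A, GADD45B and SESN2 lie within 500 nt, and CDKN1A and CDKN1B stay below the line in this exon.

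By gene-level score the order was MDM4, MDM2, PPM1D, CDKN1B, GADD45A, GADD45B, SESN2, SESN1 and CDKN1A. The counting intervals of MDM4 (5.997 to 6.59) and MDM2 (5.60 to 6.10) overlapped, as did those of MDM2 and PPM1D (4.80 to 5.77). CDKN1B (2.97 to 3.58), GADD45A, GADD45B and SESN2 (2.46 to 3.03) overlapped with their neighbours in the order and were all below PPM1D. CDKN1A lay below SESN2 without overlap, and the interval of SESN1, too wide for its score, spanned both. These intervals leave out the error of the gene medians and the choice of the highest pair, so a lack of overlap is not a test. Without centring on the gene median GADD45B moved to place 3 in the order, ahead of PPM1D. By input the order ran CDKN1A, GADD45B, MDM2, CDKN1B, SESN2, MDM4, GADD45A, PPM1D and SESN1, and the intervals of MDM4 (3.18 to 3.35) and GADD45A (2.94 to 3.39) overlapped. CDKN1A, with the highest mean input of the 8 measured genes, had the lowest score, and PPM1D, with the lowest, had a score of 5.27. The 2 orders were not the reverse of each other, as MDM2 had place 3 by input and place 2 by score. The mean input of PPM1D also includes 53 windows at the end of exon 6 with an input of 0.310.

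**Figure D3:**
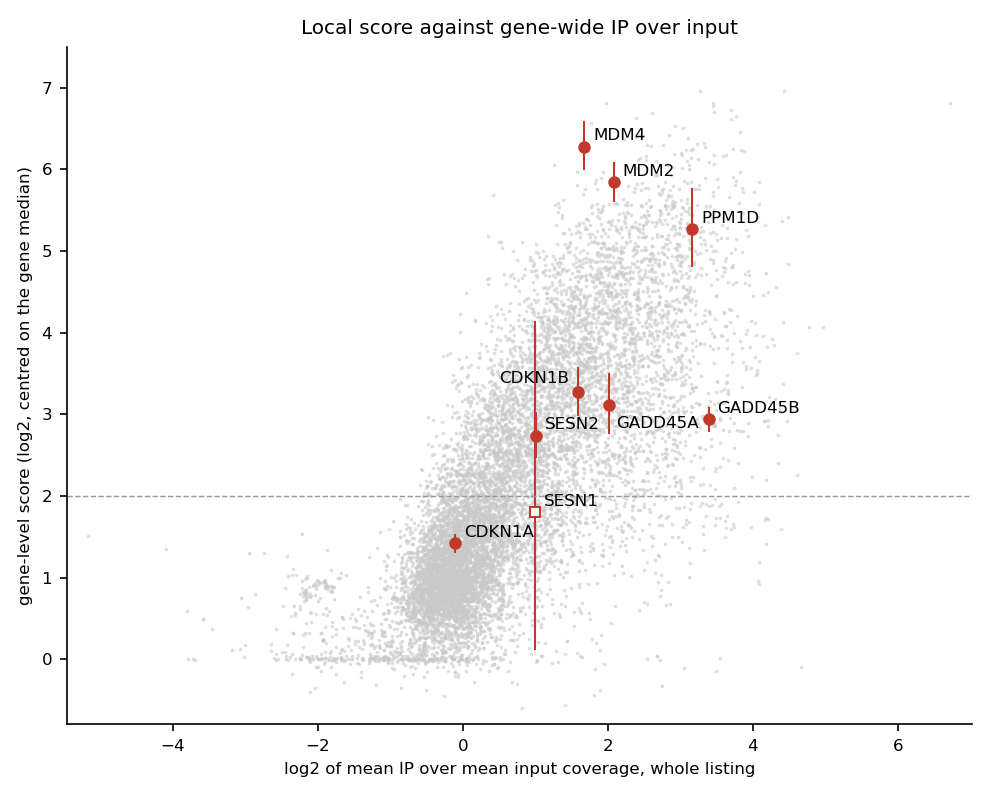
Gene-level score (log2, centred on the gene median) against the log2 of mean IP over mean input coverage, with measured genes in grey and the circuit in red. Bars are 95% counting intervals of the ratio of the highest pair, carried over to the score. SESN1, below the input minimum, is an open square. MDM4 and MDM2 have high local scores at moderate ratios, GADD45B has the highest ratio of the circuit at a score of 2.94, and CDKN1A is low on both axes.

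The wider pathway was read from lists of other p53 targets and of upstream p53 regulators. The list called upstream regulators also holds the cell cycle and replication genes CDK2, CDK4, CCND1, CCNE1, CCNE2 and PCNA. Its name therefore does not hold for all of its genes, and CDK2 and PCNA are among those with a region. Of 54 other targets, 35 were measured and 18 of these held a region, and the median gene-level score of the 35 was 2.26. Of 40 upstream regulators, 36 were measured, 18 held a region, and the median of the 36 was 2.32. Both counts stand beside the 44.2% of all measured genes and its median of 1.81.

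The highest scores among the other targets belonged to the death receptor gene TNFRSF10B (4.22, mean of the highest pair 166 in the IP and 8.51 in the input), to the apoptosis genes PMAIP1, which encodes NOXA (4.06, 330 in the IP and 8.70 in the input), and BBC3, which encodes PUMA (4.03, 115 in the IP and 3.72 in the input), and to RAP2B, a small GTPase (4.06, 45.0 in the IP and 2.18 in the input). The lowest were BAX, a pore-forming apoptosis gene with a pair mean of 31.0 in the IP and 17.5 in the input (0.73), and PLTP, a phospholipid transfer protein (0.49).

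Among the upstream regulators USP10, a deubiquitinase that stabilises p53, had a score of 6.23, with a pair mean of 1824 in the IP and 22.1 in the input. The acetyltransferases EP300 and CREBBP, which are p53 coactivators, had scores of 5.26 and 4.71, and the p53 kinase HIPK2 had 5.11. The DNA damage kinase CHEK2, at 0.69, and the ribosomal protein gene RPL23, at 0.55, were lowest.

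Among genes of these lists, those nearest in gene-level score were USP10 to MDM4 (-0.05) and to MDM2 (0.39), EP300 to PPM1D (-0.01), TRIM24 to CDKN1B (0.06), YY1 to GADD45A (0.00), PCNA to GADD45B (-0.09) and DRAM1 to SESN2 (0.00), as score of the listed gene minus that of the circuit gene. The next nearest were EP300 to MDM2 and MDM4, HIPK2 to PPM1D, CHEK1 to CDKN1B, CYFIP2 to GADD45A, ATR to GADD45B and COP1 (listed as RFWD2) to SESN2. This likeness is over a single pair of libraries. The further relatives SESN3, with 0.609 in the IP and 0.751 in the input, GADD45G, with 0.472 in the IP and 0.0400 in the input, and CDKN1C, with 0.0104 in the IP and 0.00659 in the input, were below the input minimum, and none of them held a region.

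**Figure D4:**
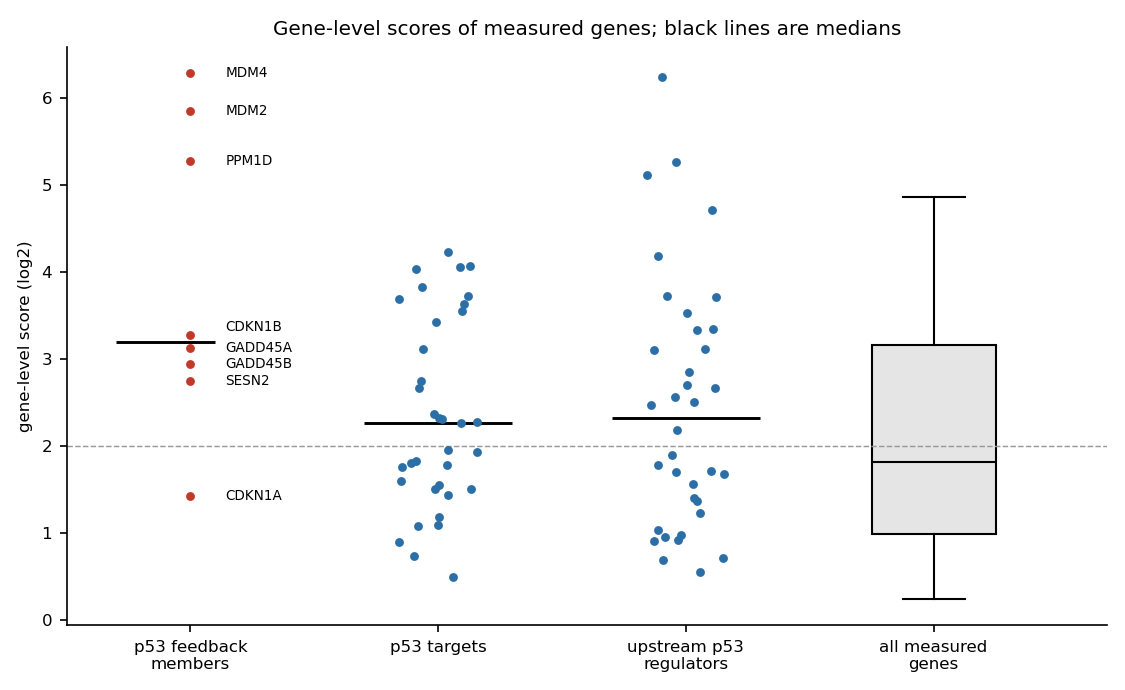
Gene-level scores (log2) of the measured genes of the circuit (red, named), of other p53 targets and upstream p53 regulators (blue), and of all measured genes (box from the lower to the upper quartile, whiskers at the 5th and 95th percentiles), with medians as black lines and a dashed line at 2. The medians are 3.19, 2.26, 2.32 and 1.81, and CDKN1A is the single named gene below the line.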

How the data were processed

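TopHat 1.1.3 and hg19 are named, with no role, in the submitters' processing notes. The program behind the coverage is "not given in the sources used here", nor is the annotation. The deposited coverage is, per the file headers, a bedgraph signal per window, and its values show that the authors scaled each library by its own factor. The authors also deposited a score for each window, which is on the log2 scale. The scores and gene medians were recomputed from the coverage, and 0 of them differed by more than 1e-09. Coverage values were whole multiples of a step per library (100% within 0.01 of a step), and window size, window spacing and a read length of 36 nt were inferred from the values. From these steps reads were counted for the exact intervals of ratios, whose log2 widths were carried over to the scores without the added 1. Reads carry no molecular identifiers and neighbouring windows overlap, so intervals cover counting error only.

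The listing with most windows was used for each gene (758 windows for the 9 genes). Scripts ran under Python 3.11.15. Intervals used scipy 1.17.1, regions, scores and list counts used pandas 2.3.3 and numpy 2.4.6, and figures used matplotlib 3.10.9. Region finding was also run on simulated coverage with planted regions. There windows were drawn independently, unlike the overlapping windows here, and centred on the longest listing, so it gives no error rate for these data. The genes and lists were chosen with earlier results of these data known. All 9 genes were described, with the 4 highest and 2 lowest measured genes of each pathway list, SESN3, GADD45G, CDKN1C and, per gene with a region, the 2 list genes nearest in score. Alternatives changed the threshold, run length, added number, centring, listing, input minimum and window overlap, or took the highest single window in place of the highest pair.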

Additional observations from a re-analysis of the deposited data

How the results depend on the processing

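The count of circuit genes with a region was 7 of 8 with 0.1 added before the logarithm, beside 51.8% of measured genes, and with 5 added, beside 33.9%. It was also 7 of 8 without centring (45.5%), with the gene median over the longest listing (44.2%) and with all listings (44.8%). Runs of 1 window (48.0%) and every second window (46.3%) gave 7 of 8 as well. With no input minimum it was 7 of 9, beside 14.1% of 47257 genes. At a score of 1 it was 8 of 8, beside 71.4%, and with runs of 4 windows 5 of 8, beside 31.0%. At a score of 3 it was 4 of 8, with 11 of 35 other targets and 11 of 36 upstream regulators, beside 26.0% of measured genes. Of those 4 circuit genes, 3 had the highest pair in the longer terminal exon. At a score of 1 the counts of other targets and upstream regulators were 31 and 28, beside 71.4%. With runs of 4 windows 11 other targets held a region, beside 31.0%. With an input minimum of 5 the counts were 2 of 3 circuit genes, 7 of 17 other targets and 11 of 19 upstream regulators, beside 34.1%. Fewer genes were tested, and 2 of the 2 circuit genes with a region had the highest pair in the longer terminal exon. The terminal exon counts under alternatives were added after seeing the data, were not run for all listings and have no background share beside them. Of 54 gene-level values under alternatives, 41 stayed within the interval of the main value and 13 moved further. Some of the 41 were fixed in advance. MDM2, PPM1D, CDKN1B, GADD45B and SESN2 have 1 listing each, so all listings and the gene median over the longest listing could only return their main values. The highest single window, another alternative, cannot lie below the mean of the pair. SESN1, the least covered gene, had 3.60 with 0.1 added and 0.64 with 5 added, against 1.80. Both counted among the 41 because its interval is too wide, so that count does not show that its score is stable. No replicate could be left out with 1 library in each group. No paired analysis was possible because the result comes from no test. The counting intervals of the gene-level score were widest for SESN1 and, after it, PPM1D, the circuit genes with the lowest input. Leaving out the added 1 widens these intervals at low input.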
